A study of Mus musculus with 69 samples.

Results

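The data are RNA-Seq counts of primary murine endothelial cells (EC) that were kept either as Control or with the metabolic stressors of obesity, a high glucose concentration together with free fatty acids (HG + FFA). The comparison used every EC sample group, called a set here, that holds both a Control and a HG + FFA library, which are sets 9 and 11 to 18. Set 10 has no Control library and was left out. This gave 18 of the 69 libraries of the series, or 9 pairs, of the 38 EC libraries in all. The question was which RNAs changed in EC when glucose and fatty acids were raised together, as a counterpart to the vascular smooth muscle cells (VSMC) of the same study.

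The cells came from hearts of male C57BL/6 mice with unaltered EGFR in the labels (genotype WT), and were obtained by depletion of CD45-positive cells and 2 rounds of selection with CD31 beads. HG + FFA was, by the labels, 20 mM glucose with 100 µM free fatty acids for 24 h. The methods name the sodium salts of oleate and palmitate and give that concentration for each, so that the total dose differs between these sources. Fatty-acid-free albumin was added to every incubation, Control included, so that the carrier does not differ between the groups, while the glucose level of Control is not given in the sources used here. Glucose and fatty acids were always given together, so their effects cannot be told apart. The 9 sets came from 8 animals, because sets 17 and 18 share an animal and were cultured as separate sets. The animals of sets 15 and 16 also gave the EGFR-deleted (KO) VSMC of the series, and the animal of set 9 gave WT VSMC. The age of the animals is not given.

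Free fatty acids enter a cell, are bound by carrier proteins, activated with coenzyme A, and then burned in mitochondria and peroxisomes or stored as triglyceride in lipid droplets. Fatty acids are also ligands of the peroxisome proliferator-activated receptors (PPAR), which switch on genes of uptake, oxidation and storage. The liver X receptors (LXR) sense oxysterols and drive the export of cholesterol, and unsaturated fatty acids are known to hold back part of that program. Heart endothelium lies between the blood and a muscle that lives on fatty acids.

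Each library held 19711988 to 43240489 counted reads, with a median of 25115226. After the filter on low counts 17254 genes were tested. Levels are given as FPM, counts scaled to a common library size with TMM normalization and not divided by gene length, so that they compare one gene between libraries and not 2 genes with each other. A differentially expressed gene (DEG) had an FDR under 0.05 in both edgeR and DESeq2, a log2 fold change (log2FC) of at least 0.64 in size, 3 FPM or more on average in one of the groups, and was a protein-coding or lncRNA gene. Differences in level between sets were taken up by a term for the set. The p-values measure the spread of libraries, of all conditions, around the fitted set and condition effects. The sets are not independent mice throughout, since 1 animal gave 2 sets.

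The cells were checked against markers before the response was read. The summed level of the 13 endothelial markers that could be tested of the 14 listed, Pecam1, Cdh5 and Kdr among them, ranged from 376 to 6108 FPM over the Control libraries. It was 5391 to 6108 FPM in sets 12, 14, 15 and 18, 1034 and 1400 FPM in sets 17 and 16, and only 376, 416 and 555 FPM in sets 9, 11 and 13. Fibroblast markers ran from 721 FPM in set 12 to 11420 FPM in set 13. The labelled cell type is thus weak in 3 of the 9 sets, in which Pecam1, the CD31 antigen itself, lay at 23.0, 45.6 and 24.1 FPM, against 261 to 1881 FPM in the others. In such bulk libraries fewer cells of a type and less RNA per cell cannot be told apart. Sets 17 and 18, from the same animal, differed as well, though less than the range of all sets, with 1034 and 5682 FPM of endothelial marker RNA.

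Between the libraries of a set these levels differed less than between sets. The endothelial sum was higher with HG + FFA in 6 of 9 sets, with a median log2FC of 0.08 over the 13 markers tested. Among them Emcn rose (log2FC 0.37 ± 0.08, edgeR FDR 0.00765) and Tek, the angiopoietin receptor, fell (log2FC -0.37 ± 0.10, edgeR FDR 0.0435). The fibroblast sum was lower in 7 of 9 sets, and Col1a1 was the 1 marker of 6 that passed the test. Col1a1 gave 7966 of the 11420 FPM of this sum in the Control library of set 13, and the sum without it was not computed. The smooth muscle and pericyte sum was also lower in 7 of 9 sets (median log2FC -0.26) and the cardiomyocyte sum in 8 of 9 (median log2FC -0.31 over the 3 markers tested). Smooth muscle and pericyte markers summed to 117 to 810 FPM in Control, leukocyte markers to 4.76 to 110 FPM, cardiomyocyte markers to 3.49 to 311 FPM, lymphatic markers to 9.42 to 246 FPM, mesothelial markers to 3.18 to 86.5 FPM and erythroid markers to at most 0.646 FPM. None of the members of those 5 lists or of the erythroid list passed the test. The defining markers Cldn5 (endothelial), Ptprc (leukocytes) and Myh6, Nppa and Actn2 (heart muscle) were too low to be tested.

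**Figure D1:**
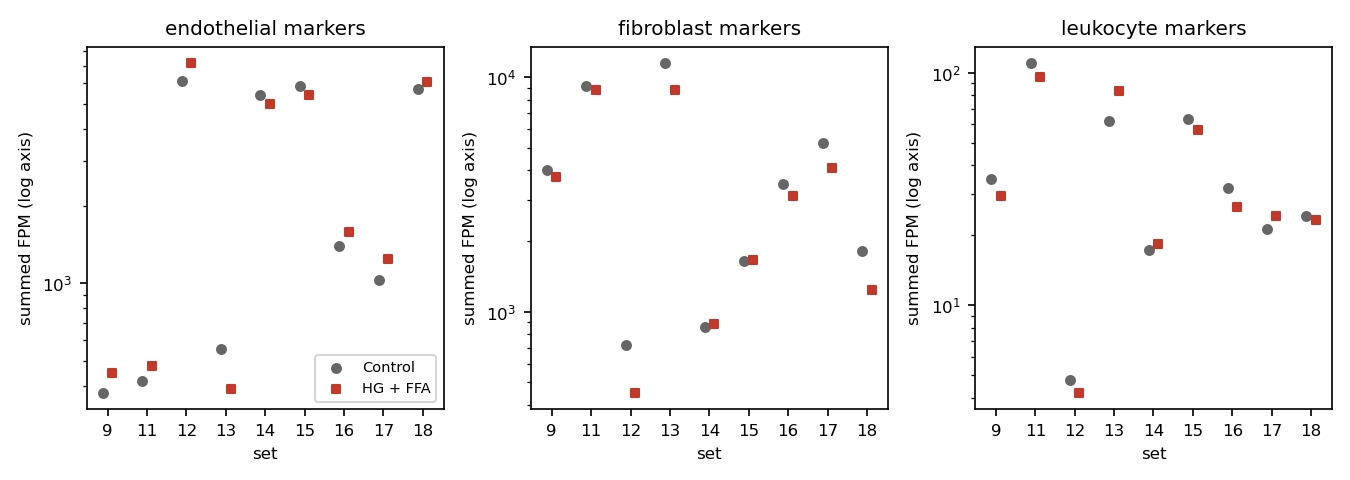
Summed FPM of endothelial, fibroblast and leukocyte marker genes (y axes, logarithmic) in the Control (grey circles) and HG + FFA (red squares) library of each set (x axes). The distance between sets, from 376 to 6108 FPM for the endothelial markers in Control, exceeds the distance between the 2 libraries of a set.

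HG + FFA changed 106 genes, which is 0.614% of the genes tested. Of these, 42 (0.243%) were higher and 64 (0.371%) were lower. There were 101 protein-coding genes and 5 lncRNAs, and 31 of them changed at least 2-fold, 14 upwards and 17 downwards. Among the 42 higher DEG 29 were higher in each of the 9 sets, and among the 64 lower DEG 33 were lower in each, where such agreement was found for 1.12% and 1.63% of all genes tested. Without the thresholds on fold change and level, edgeR alone called 493 genes (2.86%), 203 higher (1.18%) and 290 lower (1.68%), and DESeq2 alone 804. Across all genes the median log2FC was -0.01 after TMM scaling, which centres most genes near 0, so that a shift common to all RNAs cannot be seen. The DEG nearest to the threshold of fold change were Impa2 with log2FC 0.6417 and Islr with -0.6423, and Dusp18 at 0.6386 and Serpinb9b at 0.6396 lay just below it.

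Leaving out sets 9, 11 and 13, the ones with the least endothelial marker RNA, gave 123 DEG, 56 higher and 67 lower, of which 73 were among the 106. Every one of the 106 kept its direction there with an unadjusted p under 0.05. The sets left in are part of those by which the 106 had been called, so that such agreement was largely given in advance. The response was not equally large in all sets. Taken over the 106 DEG in the direction of the fit, the median log2 ratio of HG + FFA to Control was smallest in set 11, at 0.49, and largest in set 12, at 1.38. Set 11 showed the smallest ratio of all sets for 37 of the DEG, and set 12 the largest for 33.

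**Figure D2:**
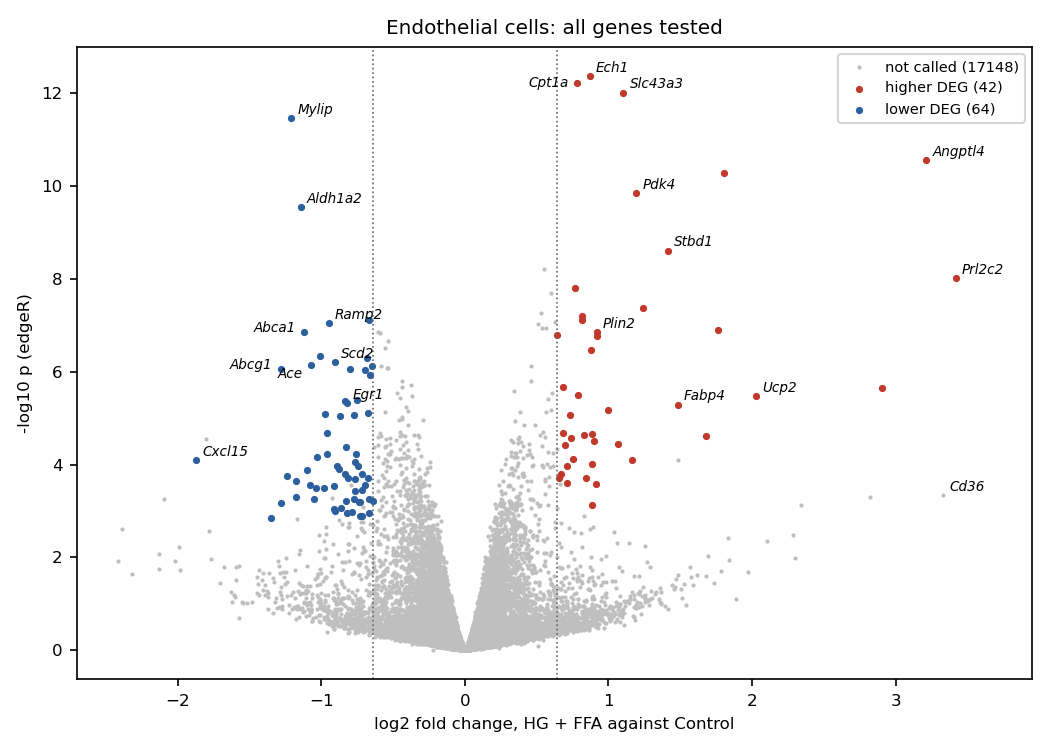
Each point is 1 of the 17254 genes tested, with its log2FC of HG + FFA against Control on the x axis and -log10 of the edgeR p on the y axis. Red points are the 42 higher DEG and blue points the 64 lower DEG, dotted lines mark log2FC of -0.64 and 0.64, and Cpt1a, Ech1 and Slc43a3 stand highest.

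Among the genes of fatty acid handling Angptl4 rose most of those called. Angptl4 (chr17:33992724-34000804 of GRCm39, minus strand) encodes a secreted inhibitor of lipoprotein lipase and is a classical PPAR target. In the Control libraries Angptl4 ran from 4.16 through a median of 14.7 to 476 FPM. With HG + FFA it ran from 106 through 203 to 810 FPM. All 9 sets went up, but the groups overlapped, because Control was already at 89.0, 476 and 75.3 FPM in sets 9, 11 and 13 and at 4.16 to 20.2 FPM in the other 6. The fit gave a log2FC of 3.21 ± 0.32 (edgeR FDR 9.64e-08), and single sets ranged from 0.77 in set 11 to 5.01 in set 14. Fabp4, a cytosolic fatty acid carrier of capillary endothelium and fat cells, lay at 0.336, 1.89 and 104 FPM (lowest, median and highest Control) and at 1.07, 7.72 and 181 FPM with HG + FFA. It was higher in all 9 sets, with a log2FC of 1.48 ± 0.27 (edgeR FDR 0.00138), though 24.0% of its exonic length is shared with another gene, so that some of its reads could belong there.

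Of the 16 members tested in the list of uptake, binding and activation, Angptl4 and Fabp4 were the DEG. Cd36, the fatty acid translocase, passed in edgeR (log2FC 3.33 ± 0.84, FDR 0.0252) but not in DESeq2 (FDR 0.164). Its level was 0 to 2.15 FPM in Control, and with HG + FFA it reached 92.2 FPM in set 12 and 20.8 FPM in set 14 while staying at or under 1.69 FPM in the other 7 libraries, so that the fold rests on those sets. Vldlr, a lipoprotein receptor, fell (log2FC -0.39 ± 0.10, edgeR FDR 0.0334). Lpl, the lipase that Angptl4 restrains, was not called, at log2FC -0.05 ± 0.16 (edgeR FDR 0.925). The median of the list, at -0.04, lay near that of all genes.

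For the entry of fatty acids into mitochondria, the RNA of Cpt1a changed in a narrow range across sets. Cpt1a (chr19:3371853-3437996, plus strand) is the carnitine palmitoyltransferase of the outer mitochondrial membrane and the controlling step of that entry. It ran from 135 through 193 to 237 FPM in Control and from 286 through 308 to 404 FPM with HG + FFA. This was the only gene of the 17254 tested (0.0058%) whose groups did not overlap over the 9 sets. The log2FC was 0.78 ± 0.07 (edgeR FDR 5.27e-09), with single sets between 0.41 and 1.16.

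Within the oxidation cycle the changes were smaller. Acaa2, the last enzyme of the beta-oxidation cycle, and Acadl, a dehydrogenase of its first step, rose by log2FC 0.53 ± 0.07 and 0.51 ± 0.07 in all 9 sets (edgeR FDR 6.17e-05 and 7.93e-05), below the fold threshold for DEG. Slc25a20, the carnitine carrier, and Etfdh, which hands electrons on to the respiratory chain, passed as well. In the list of mitochondrial oxidation 6 of the 21 tested members thus passed upwards, 1, Echs1, passed downwards and 14 did not pass, with a median log2FC of 0.07.

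In peroxisomes and around acyl-CoA the changes ran the same way for the members that passed. Ech1 (chr7:28524036-28531674, plus strand), an isomerase for the oxidation of unsaturated fatty acids, lay at 79.8, 105 and 142 FPM in Control and at 113, 202 and 276 FPM with HG + FFA. It was higher in all 9 sets, with a log2FC of 0.87 ± 0.07 (edgeR FDR 5.27e-09). The thioesterases that release free fatty acids from coenzyme A followed. Acot1 rose by log2FC 0.999 ± 0.19 (edgeR FDR 0.00173) in 8 sets and Acot2 by 0.58 ± 0.16 (edgeR FDR 0.034) in 7, and these near-identical genes can share reads. With Acot13 among them, 5 of 19 members passed upwards and none downwards, and the median was 0.17.

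Among the genes of fuel choice and fat storage, the RNA of single ones changed. Pdk4 (chr6:5483097-5496339, minus strand), the kinase that shuts off pyruvate dehydrogenase and so spares glucose, was the 1 member of 13 to pass in the list of pyruvate entry. It ran from 52.5 through 109 to 321 FPM in Control and from 96.9 through 267 to 442 FPM with HG + FFA. All 9 sets went up, the group ranges overlapped widely, and the log2FC was 1.19 ± 0.13 (edgeR FDR 3.53e-07). Plin2, the coat protein of lipid droplets, lay at 39.2, 72.2 and 89.7 FPM in Control and at 82.3, 111 and 254 FPM with HG + FFA, with a log2FC of 0.92 ± 0.14 (edgeR FDR 8.93e-05). The groups overlapped through set 14 alone, whose HG + FFA value of 82.3 FPM lay below the highest Control values. Lipe, the hormone-sensitive lipase that empties droplets, rose by log2FC 0.81 ± 0.12 (edgeR FDR 6.76e-05) in all 9 sets, with 22.3% of its exonic length shared with another gene. These were the 2 members of 17 that passed in the list of droplets and lipolysis. Plin4 missed the test, at log2FC 0.87 ± 0.26 (edgeR FDR 0.0698).

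**Figure D3:**
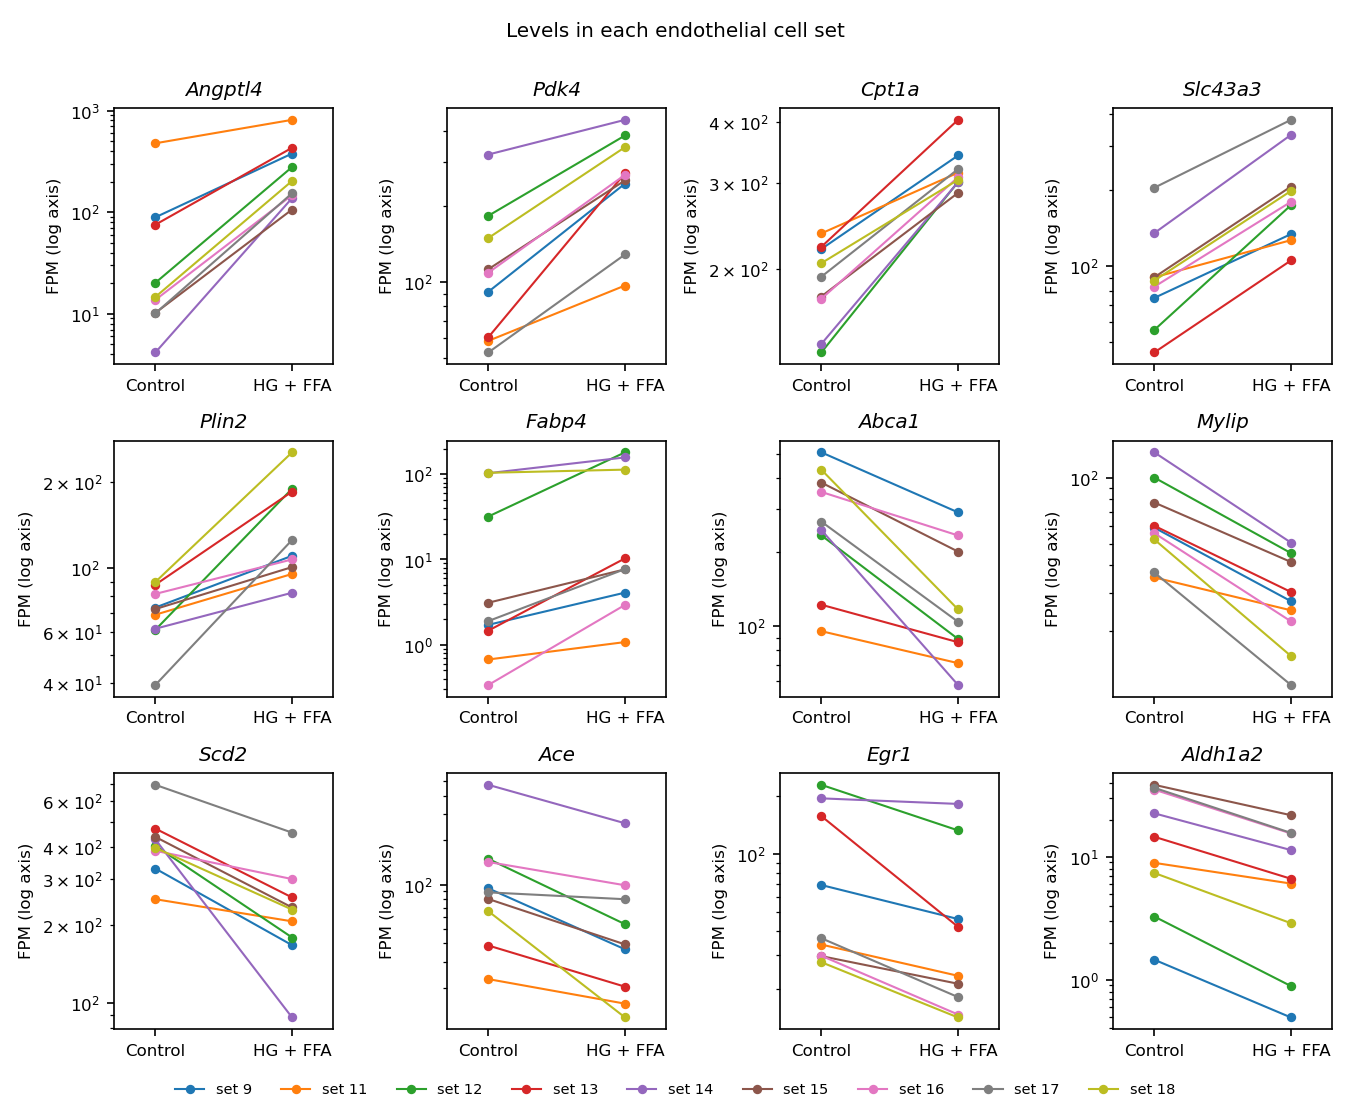
FPM (y axes, logarithmic) of 12 genes in the Control and HG + FFA library of each set, joined by a line per set and coloured by set. Lines rise in all 9 sets for Angptl4, Pdk4, Cpt1a, Slc43a3, Plin2 and Fabp4 and fall in all 9 for Abca1, Mylip, Scd2, Ace, Egr1 and Aldh1a2.

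The receptors themselves were not called. None of the 12 tested members of the list of PPAR and their partners passed, with 1 at an unadjusted p under 0.05 in each direction, where 7.02% of all genes had such a p upwards and 8.37% downwards. Pparg gave log2FC 0.26 ± 0.12 (edgeR FDR 0.299), Ppard -0.05 ± 0.10 (0.868) and Ppara, which lay at 1.66 FPM or less in every library, -0.67 ± 0.56 (0.629). Neither did glucose handling pass as a list, in cells given 20 mM glucose. Of 24 tested genes of glucose transport, glycolysis and glucose sensing none passed in edgeR, while 7 had an unadjusted p under 0.05 upwards and 2 downwards, and the median was 0.09. Txnip, the glucose-responsive inhibitor of thioredoxin, was at 463, 651 and 1260 FPM in Control and at 290, 596 and 1271 FPM with HG + FFA, and was higher in only 3 of 9 sets (log2FC -0.25 ± 0.09, edgeR FDR 0.136). In the side routes of glucose Taldo1, of the pentose phosphate pathway, rose (log2FC 0.36 ± 0.08, edgeR FDR 0.00981), Khk, which phosphorylates fructose, fell (log2FC -0.52 ± 0.11, edgeR FDR 0.00522), and 10 of 12 did not pass.

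In the list of LXR targets 3 of 10 tested genes passed, all downwards. Srebf1, an LXR target too, was counted with fatty acid synthesis and is given below. Mylip (chr13:45543215-45565501, plus strand) encodes IDOL, a ubiquitin ligase that degrades lipoprotein receptors. It ran from 35.2 through 59.3 to 131 FPM in Control and from 11.4 through 27.4 to 50.7 FPM with HG + FFA, and was lower in all 9 sets (log2FC -1.21 ± 0.11, edgeR FDR 1.48e-08). Abca1 (chr4:53030787-53159900, minus strand), which exports cholesterol to apolipoprotein A-I, went from 95.7, 266 and 507 FPM to 57.9, 104 and 290 FPM and fell in all 9 sets (log2FC -1.12 ± 0.17, edgeR FDR 8.93e-05). Abcg1, the exporter to high-density lipoprotein, went from 2.29, 4.60 and 23.6 FPM to 1.13, 2.23 and 8.36 FPM (log2FC -1.28 ± 0.21, edgeR FDR 0.000351). The ranges of the groups overlapped for all 3 genes, since sets differed more than the treatment moved them. The other 7 of 10 tested members did not pass, though 6 of the 10 had an unadjusted p under 0.05 downwards and none upwards, and the median of the list was -0.25. Apoe, an LXR target too, was at log2FC -0.49 ± 0.14 (edgeR FDR 0.0508).

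The promoter of Abca1 is shown because among the DEG it was the only one whose window in RefSeq (GRCm38.p6, 250 bases before to 50 after a start) held an LXR-type direct repeat. The repeat was searched as GGTNA, 5 bases of any kind and GGTCA, on both strands, and was found in 68 of 32851 windows (0.207%). Windows were found for 26 of the 42 higher and 44 of the 64 lower DEG. The 250 bases before the start are chr4:53159896-53160145 of that build, given on the minus strand, 5′ to 3′, with the repeat in capitals. It stands at -67 to -53 counted from the start and reads along the opposite strand.

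Abca1: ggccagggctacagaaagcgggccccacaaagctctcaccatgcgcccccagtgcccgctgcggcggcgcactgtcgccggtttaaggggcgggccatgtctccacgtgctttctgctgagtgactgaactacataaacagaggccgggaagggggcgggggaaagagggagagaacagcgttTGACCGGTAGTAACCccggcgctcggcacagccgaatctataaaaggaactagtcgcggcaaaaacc

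The PPAR-type direct repeat, AGGTCA and again AGGTCA with any 1 base between the copies, searched in the same way, was in 13 of the windows (0.0396%) and in none of the DEG. Within 5000 bases of the gene start in GRCm39 it was found for 2.28% of 17183 tested genes, for 0 of the 42 higher and for 1 of the 64 lower DEG (1.56%). These are matches of letters in a fixed window, and sites further away or with other letters were not searched.

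Among the genes of fatty acid synthesis and desaturation, the RNA of a desaturase and of a regulator fell. Scd2, a stearoyl-CoA desaturase that makes oleate, went from 251, 403 and 694 FPM in Control to 87.7, 229 and 454 FPM and fell in all 9 sets (log2FC -0.91 ± 0.15, edgeR FDR 0.000304). The fall was largest in set 14, at log2 -2.28. Srebf1, the transcription factor of lipid synthesis and itself an LXR target, fell by log2FC -0.55 ± 0.12 (edgeR FDR 0.00579) in 8 sets, while Acly, which supplies cytosolic acetyl-CoA, rose slightly (log2FC 0.25 ± 0.06, edgeR FDR 0.011). The other 13 of 16 members did not pass. Cholesterol synthesis and uptake stood apart from the exporters, in that 1 of 26 tested genes passed, Sc5d, with log2FC 0.29 ± 0.08 (edgeR FDR 0.0396). The other 25 did not pass, and the median of that list was 0.12.

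**Figure D4:**
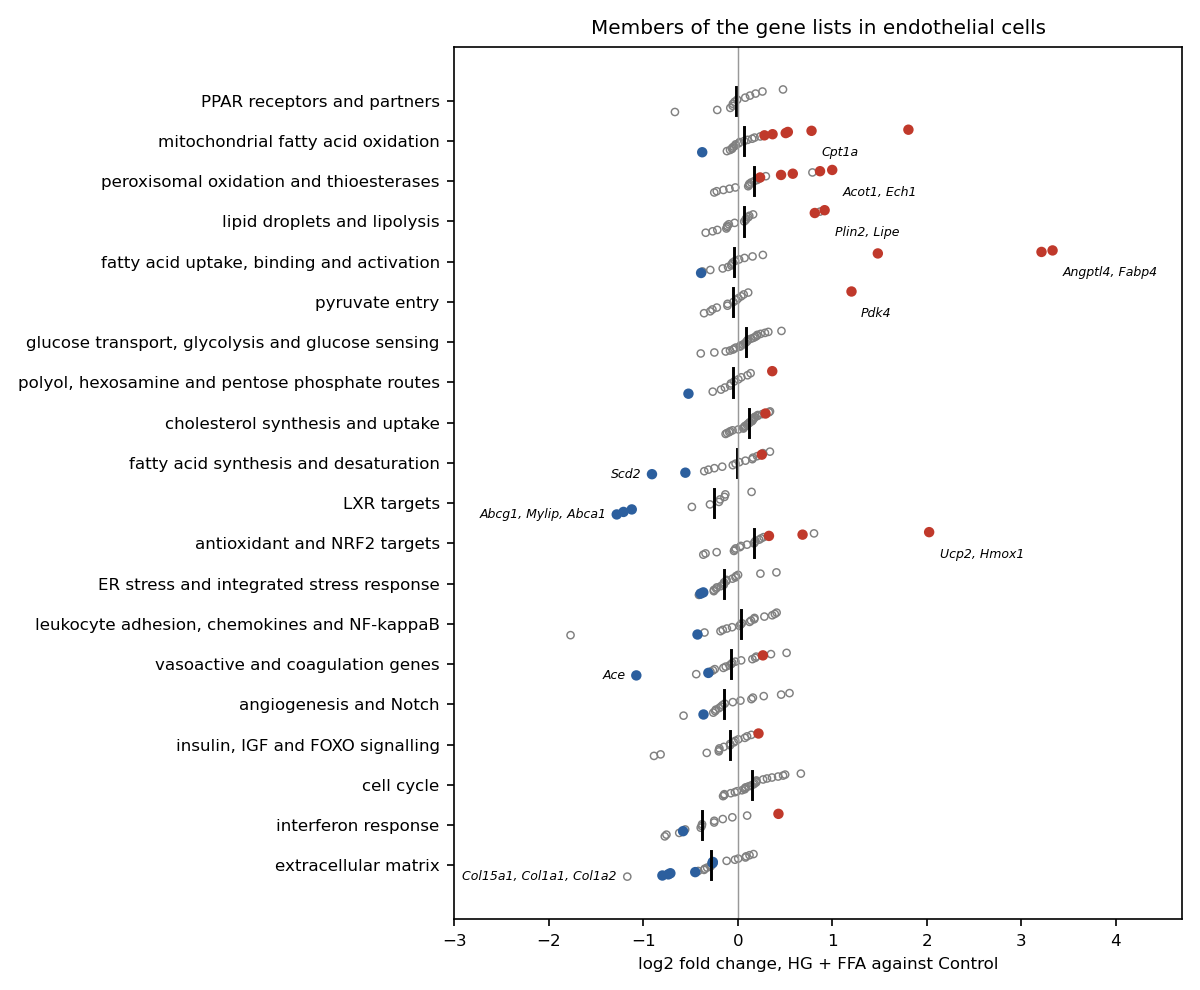
Every tested member of the 20 gene lists at its log2FC of HG + FFA against Control (x axis). Filled points passed at an edgeR FDR under 0.05 (red higher, blue lower), open points did not, black bars are list medians and names mark DEG; the filled points beyond 3 are Angptl4 and Cd36, and the list medians lie between -0.38 and 0.17.

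Among genes of oxidative defence Ucp2, an uncoupling protein and known PPAR target, rose from 0, 1.28 and 2.32 FPM to 0.694, 4.88 and 9.04 FPM (log2FC 2.02 ± 0.36, edgeR FDR 0.001), in all 9 sets and from low levels. Hmox1, the inducible heme oxygenase, went from 22.8, 58.3 and 160 FPM to 44.6, 75.3 and 255 FPM (log2FC 0.69 ± 0.14, edgeR FDR 0.00411) and was higher in 8 sets. Txnrd1, the cytosolic thioredoxin reductase, rose by log2FC 0.33 ± 0.09 (edgeR FDR 0.032). The other 16 of 19 tested members did not pass, and the median was 0.17. Of 19 genes of ER stress 2 passed, both downwards, namely the chaperone Calr (log2FC -0.39 ± 0.08, edgeR FDR 0.00624) and the transcription factor Xbp1 (-0.37 ± 0.08, edgeR FDR 0.00846). Ddit3, which encodes CHOP, was not called (log2FC -0.06 ± 0.11, edgeR FDR 0.876), and 82.4% of its exonic length is shared with another gene.

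Of the genes by which endothelium governs vessel tone and clotting, Ace changed most. Ace (chr11:105858469-105880790, plus strand), the angiotensin-converting enzyme, went from 23.0, 88.7 and 474 FPM in Control to 12.6, 39.4 and 260 FPM. It was lower in all 9 sets (log2FC -1.07 ± 0.17, edgeR FDR 0.000329). Ptgs1, the constitutive cyclooxygenase, fell by -0.31 ± 0.09 (edgeR FDR 0.0465), Tfpi, the inhibitor of the tissue factor pathway, rose by 0.27 ± 0.07 (edgeR FDR 0.034), and 16 of 19 members did not pass. Edn1, the endothelin precursor, was at log2FC 0.15 ± 0.09 (edgeR FDR 0.443). Nos3, the endothelial nitric oxide synthase, lay between 0 and 12.6 FPM in Control with a median of 0.841 FPM, too low for a precise value (log2FC -0.06 ± 0.40, edgeR FDR 0.97). Klf2, a flow-responsive transcription factor of endothelium, was at -0.82 ± 0.25 (edgeR FDR 0.0658).

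No rise of adhesion molecules passed the test over the 9 sets. Without sets 9, 11 and 13 the adhesion molecule Selp passed upwards (log2FC 0.44, edgeR FDR 0.0374), against 0.28 ± 0.11 (edgeR FDR 0.186) over all sets. No member of its list passed downwards in that fit. Over the 9 sets Vcam1 gave log2FC 0.12 ± 0.11 (edgeR FDR 0.629) and Icam1 0.18 ± 0.10 (0.393). Of 18 genes of adhesion, chemokines and NF-kappaB signalling only Cx3cl1, a membrane-bound chemokine, passed there, downwards (log2FC -0.43 ± 0.10, edgeR FDR 0.0156, lower in all 9 sets). In the interferon list Ifit2 rose (log2FC 0.43 ± 0.09, edgeR FDR 0.00719) and Oasl2 fell (-0.58 ± 0.16, edgeR FDR 0.034), 7 of the 14 tested members had an unadjusted p under 0.05 downwards and 1 upwards, and the median was -0.38. Of 16 genes of angiogenesis and Notch signalling Tek alone passed, and of 16 genes of insulin, IGF and FOXO signalling Ccng2 alone, with log2FC 0.22 ± 0.06 (edgeR FDR 0.0358). None of 24 cell cycle genes passed, with 6 at an unadjusted p under 0.05 upwards and 2 downwards, and Mki67 gave 0.48 ± 0.20 (edgeR FDR 0.212). Egfr, the receptor at the centre of the series, was not called (log2FC 0.18 ± 0.10, edgeR FDR 0.383). Its Control level was lowest in sets 15 and 16, at 7.58 and 2.23 FPM, against 11.3 to 148 FPM in the other sets. The animals of sets 15 and 16 are those that also gave KO VSMC, and what the Egfr level goes with was not tested.

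Of the 20 lists that of matrix genes had the most members that fell. Of 21 tested genes 6 passed, all downwards, 13 had an unadjusted p under 0.05 downwards and none upwards, and the median was -0.29. The DEG were Col15a1, a basement membrane collagen (log2FC -0.80 ± 0.13, edgeR FDR 0.000351), and the chains of type I collagen, Col1a1 (-0.74 ± 0.19, edgeR FDR 0.0317) and Col1a2 (-0.71 ± 0.17, edgeR FDR 0.0129). Col3a1 (-0.45 ± 0.11, edgeR FDR 0.0213) and Mmp2 (-0.27 ± 0.06, edgeR FDR 0.0102) were lower in all 9 sets. Col1a1 ran from 53.3 through 1876 to 7966 FPM in Control and from 11.6 through 1940 to 5465 FPM with HG + FFA, so that the medians do not differ in the direction of the fit, and single log2 ratios ran from -2.19 to 0.07. The fibroblast marker sum and the smooth muscle and pericyte sum were each lower in 7 of 9 sets as well, and the cardiomyocyte sum in 8 of 9. Col1a1 is itself a fibroblast marker and a large part of that sum, so that the fibroblast sum partly repeats the fall of Col1a1. The other fibroblast markers ran from log2FC -0.55 for Dpt to 0.12 for Dcn, and none of them passed. The part of these cells in the matrix genes was not tested. Without sets 9, 11 and 13 again 6 members passed downwards and none upwards.

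Several DEG stood outside these lists. Slc43a3 (chr2:84766862-84788865, plus strand), a membrane carrier, was among the genes with the smallest p, at 45.4, 87.6 and 204 FPM in Control and 105, 180 and 380 FPM with HG + FFA (log2FC 1.10 ± 0.10, edgeR FDR 5.64e-09, higher in all 9 sets). Stbd1, which tethers glycogen, rose by log2FC 1.41 ± 0.17 (edgeR FDR 4.73e-06) and Ppp1r3c, which targets a phosphatase to glycogen, fell by -1.03 ± 0.22 (edgeR FDR 0.00765), each in all 9 sets. Cyp26b1, which breaks down retinoic acid, rose (log2FC 0.92 ± 0.14, edgeR FDR 9.62e-05), and Aldh1a2, which makes it, fell (-1.14 ± 0.13, edgeR FDR 6.31e-07). Aldh1a2 lay at 1.45, 14.6 and 38.6 FPM in Control and at 0.492, 6.63 and 21.8 FPM with HG + FFA. Dhrs3, which reduces retinal and was picked after its values were seen, rose by 0.81 ± 0.12 (edgeR FDR 7.37e-05) in all 9 sets.

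The largest fitted fold of any DEG was that of Prl2c2, a prolactin-family hormone also called proliferin, at log2FC 3.42 ± 0.44 (edgeR FDR 1.49e-05). It was at 0, 0.191 and 19.4 FPM in Control and at 0.0419, 6.78 and 114 FPM with HG + FFA, with set 12 highest in both groups. Its near-identical copy Prl2c3, picked after its values were seen, ran beside it (log2FC 2.91 ± 0.50, edgeR FDR 0.000764), and the reads of these genes cannot be assigned with certainty. Gria4, a glutamate receptor subunit, rose by 1.76 ± 0.26 (edgeR FDR 8.93e-05), the lncRNA Gm56730 by 1.24 ± 0.17 (edgeR FDR 5.37e-05) and Lrrc39 by 1.17 ± 0.26 (edgeR FDR 0.008), the last with 41.3% of its exonic length shared with another gene.

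On the lower side the early growth response factors fell together. These are zinc finger factors that growth factor signals switch on within minutes. Egr2 went from 0.594, 2.31 and 8.51 FPM to 0.231, 1.44 and 2.44 FPM (log2FC -1.10 ± 0.25, edgeR FDR 0.0108) and Egr3 from 0.782, 4.01 and 20.1 FPM to 0.252, 1.24 and 6.52 FPM (-1.28 ± 0.34, edgeR FDR 0.032), each in all 9 sets. Egr1, picked after its values were seen, went from 27.4, 36.5 and 228 FPM to 14.2, 23.3 and 182 FPM (-0.82 ± 0.15, edgeR FDR 0.00129), also in all 9. Egr3 lost its FDR under 0.05 when 7 of the 9 sets were left out singly and Egr2 when set 13 was. Other lower genes named by size were Cxcl15, a chemokine (-1.87 ± 0.41, edgeR FDR 0.00801), Scara5, a scavenger receptor (-1.24 ± 0.29, edgeR FDR 0.0136), Atp1b2, a sodium pump subunit (-1.18 ± 0.30, edgeR FDR 0.027), and Prrt4 (-1.05 ± 0.27, edgeR FDR 0.0283). The 72 DEG outside the rule by which genes were named, 24 higher and 48 lower, had log2FC from 0.64 to 2.91 and from -0.64 to -1.35. Some of these, such as Prl2c3, Dhrs3 and Egr1, are reported here all the same.

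The promoter of Egr2 is shown because it was among the DEG whose window held a CArG box, the site of serum response factor. Of all windows 535 (1.63%) held one, and among the DEG those of Egr2, Lama2 and Selenbp1 on the lower side and of Dgkh and Stbd1 on the higher side. The 250 bases before its start are chr10:67537316-67537565 of GRCm38.p6, plus strand, with the box in capitals at -72 to -63.

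Egr2: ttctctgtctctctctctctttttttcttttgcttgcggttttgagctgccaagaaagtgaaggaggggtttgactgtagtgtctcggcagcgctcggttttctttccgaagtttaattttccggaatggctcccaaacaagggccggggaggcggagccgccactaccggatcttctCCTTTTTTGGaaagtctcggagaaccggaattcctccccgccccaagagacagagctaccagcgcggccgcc

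The addition of glucose and fatty acids was measured a second time in the same cells, on top of the humoral stressors. AII + NA libraries had received 30 nM angiotensin II and 300 nM of a catecholamine that the labels call epinephrine, and ALL libraries had received these together with HG + FFA. Sets 9 to 14 and 16 to 18 hold both, and their 18 libraries were fitted alone. None of them is a Control or HG + FFA library, so none is compared in the contrast above. All of them except those of the set without Control were, however, part of the fit behind that contrast. They shared in its filter on low counts and its estimate of the spread, by which the DEG were called. The counts of DEG that pass here are thus not independent of that calling, and how far this affects them was not tested. The cells come largely from the same animals, so this is a second measurement and not a second group of mice. Of 15431 genes 76 (0.493%) were DEG.

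Of the 106 DEG 105 could be tested there. All 105 changed in the same direction, 41 upwards and 64 downwards, where the share of all genes with the same sign was not computed. An unadjusted p under 0.05 was reached by 86 of them, 35 upwards and 51 downwards, against 12.7% of all genes (5.63% upwards and 7.11% downwards). An edgeR FDR under 0.05 was reached by 48, against 1.36%, and 46 were DEG again. The median log2FC of the higher DEG was 0.91 there and 0.88 in the first comparison, and that of the lower DEG -0.67 and -0.83. Angptl4 had a mean of 79.6 FPM with AII + NA and 336 FPM with ALL (log2FC 3.44 ± 0.33, edgeR FDR 0.000165), and Ech1 gave the smallest FDR of the genes named here (log2FC 1.11 ± 0.06, edgeR FDR 3.55e-07). Cpt1a, Pdk4 and Slc43a3 were higher and Mylip and Abca1 lower in all 9 sets. Lower DEG that moved less there included Egr3 (log2FC -0.55, edgeR FDR 0.673), Cxcl15 (-0.99, edgeR FDR 0.274) and Col1a1 (-0.36, edgeR FDR 0.448). Some higher DEG nearly lost their change. Among them Gm8113 went from log2FC 0.92 to 0.09 (edgeR FDR 0.914), Abcb1a from 0.88 to 0.19 (edgeR FDR 0.677) and Dgkh from 0.88 to 0.23 (edgeR FDR 0.44). In this comparison 7 of the tested glycolysis genes passed upwards and 6 interferon genes downwards, where none and 1 had passed in those directions against Control, and that difference was not tested.

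The same stressors were also given to VSMC of the aorta, as 4 sets each of WT VSMC and of KO VSMC, in which EGFR is deleted in smooth muscle. The VSMC effects rest on VSMC libraries, but they were fitted in 1 model with the EC libraries and share its estimate of the spread. Cell type and batch label coincide, so that a difference in level between EC and VSMC cannot be told apart from batch. Only effects within sets were compared. In WT VSMC all 42 higher DEG were higher and 61 of 64 lower DEG were lower with HG + FFA, where 63.95% of all genes had the same sign in both cell types. An unadjusted p under 0.05 in the same direction was reached by 49, against 3.75% of all genes in either direction, and an edgeR FDR under 0.05 by 10, against 0.0935%. Among these were Pdk4, Lipe, Ech1, Slc43a3, Dhrs3, Gabre, Cldn15, Zfp970 and Mylip. The opposite sign was found for Egr2 (0.03), Egr3 (0.14) and Ccn3 (0.08), all near 0.

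In KO VSMC 105 of the 106 kept the direction, with Olfml2a as the exception, where the share of all genes was 65.11%. There 68 had an unadjusted p under 0.05 (8.71% of all genes) and 12 an edgeR FDR under 0.05 (0.172%), among them Angptl4, Cpt1a, Stbd1, Gria4, Adcy1 and Lgals4 besides Pdk4, Lipe, Ech1, Slc43a3 and Mylip. Pdk4 changed by log2FC 1.52 ± 0.22 in WT VSMC and 1.62 ± 0.23 in KO VSMC, and Mylip by -0.89 ± 0.16 and -0.82 ± 0.16.

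**Figure D5:**
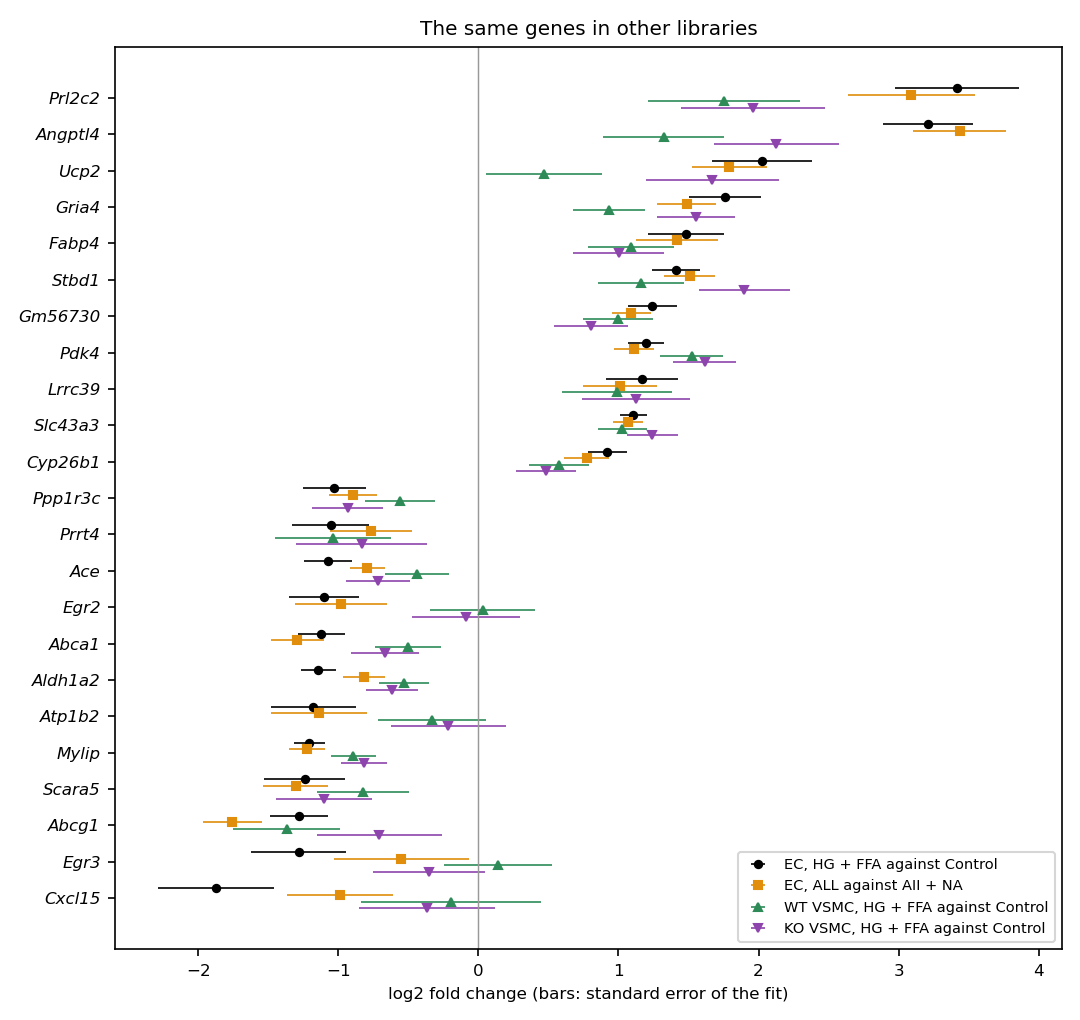
log2FC (x axis, bars give the standard error of the fit) of 11 higher and 12 lower DEG among those with the largest change that moved the same way in all 9 sets. Black circles are EC with HG + FFA against Control, orange squares EC with ALL against AII + NA, green and purple triangles WT and KO VSMC with HG + FFA against Control; Egr2, Egr3 and Cxcl15 lie near 0 in WT VSMC.

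Whether the response itself differed between cell types was tested as an interaction over 20328 genes. No gene passed in edgeR, for WT VSMC (smallest FDR 0.399, 461 genes or 2.27% with an unadjusted p under 0.05) or for KO VSMC (smallest FDR 0.69, 614 genes or 3.02%). DESeq2 called 4 genes against WT VSMC, namely Gm14286, Lincred1, Gm8013 and Ndnf, and 1, Lincred1, against KO VSMC. None of these is among the 106 DEG. Angptl4 rose by 1.89 ± 0.52 more on the log2 scale in EC than in WT VSMC (unadjusted p 0.000695, edgeR FDR 1), where its mean was 309 FPM in Control and 671 FPM with HG + FFA, and Egr3 differed by -1.41 (unadjusted p 0.00492, edgeR FDR 1). With 4 sets per VSMC group, differences of this size do not pass over all genes, and the effects are not shown to be alike by that.

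The relation of the response to the endothelial marker sum was computed over the 8 animals, with sets 17 and 18 averaged. For Angptl4 Pearson's r was 0.82 (exact permutation p 0.0083, 0.0332 after Benjamini-Hochberg adjustment over the 4 genes taken) and Spearman's rho 0.71 (exact permutation p 0.0576), and r was 0.70 without the 2 animals farthest from the median. The Control level of Angptl4, which is the denominator of this ratio, was highest in the 3 sets with the least marker RNA, so that the relation of the ratio and that of the Control level cannot be told apart and the p does not bear on the response alone. The animals stand in 3 levels of marker RNA, with 3 low, 3 high and 2 between, which leaves too few in any level to test the relation within it. For Pdk4 r was -0.46, for Cpt1a 0.62 and for Plin2 0.24 (exact permutation p 0.255, 0.103 and 0.494, adjusted 0.34, 0.206 and 0.494). In sets 9, 11 and 13 the log2 ratio of Angptl4 was 2.08, 0.77 and 2.51, and in the other 6 sets it was 3.37 to 5.01. Whether the cells present or the starting level of Angptl4 goes with that range was not tested.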

How the data were processed

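Bulk RNA-Seq of poly(A) RNA was analysed. The authors aligned paired reads to mm39 with HISAT2 2.1.0, counted them over exons of Ensembl genes with featureCounts, multi-mapping reads included, and deposited raw counts per gene without normalization or filtering. The strand setting is not given in the sources used here. Symbols, gene types, positions and exon overlaps came from GENCODE for GRCm39, which lacks the identifiers of 0.0241% of the counts.

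From these counts, edgeR 4.0.16 (R 4.3.3; TMM, filterByExpr, quasi-likelihood test) was fitted to the 35 EC libraries of the 9 sets, all conditions sharing one estimate of the spread, with condition and set as terms. DESeq2 1.42.0 was fitted alike, scaled by its median-of-ratios factors. The FDR is the Benjamini-Hochberg value over every gene of a fit. ALL against AII + NA was fitted on its own 18 libraries, and EC with VSMC in a joint model of 66 libraries. Values after ± are standard errors, the log2FC divided by the root of the F statistic. Single-set log2 ratios carry a pseudocount of 0.1 FPM. The scripts were tested on simulated counts with known changes.

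Sets pair the libraries, since the study describes them as parallel dishes of 1 animal and 1 passage. The deviations of the 2 libraries of a set correlated with r of at least 0.625 over 14133 genes of 1 FPM or more on average, against at most 0.546 between sets, and each of the 9 sets correlated best with its own partner. No 2 libraries differed by as little as sampling noise.

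Genes named are the 12 higher and 12 lower DEG with the largest change among those changed alike in all 9 sets, every DEG of a list, up to 4 members of each of 20 lists with the smallest p, and 26 fixed genes, of which Ucp3 was too low to be tested. Some genes that the rule names are not reported here, though they stay in the counts. Members and lists were chosen with earlier results of these data known. Alternatives covered the tool, scaling, filters, thresholds, block, libraries used and each set left out. Correlations used exact permutation tests, two-sided (scipy 1.17.1). Promoter windows came from RefSeq on GRCm38.p6.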

Additional observations from a re-analysis of the deposited data

Results flagged for a closer look

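The log2 ratios of HG + FFA to Control were examined for a single set far from the other 8, for each of the 106 named genes that could be tested. By Dixon's criterion 6 of the 106 genes had such a set, which is near the share of about 1 in 20 that chance gives. Ucp2 stood at 5.64 in set 17, where its Control library had no reads, against a median of 1.53. Set 12 stood apart for Ddit3, with 0.80 against a median of -0.05, and for Txnrd1, with 1.18 against 0.31. Pgm3, of hexosamine synthesis, was at 0.34 in set 13, with a median of -0.27. Pdk2, a pyruvate dehydrogenase kinase, was at 0.38 in set 16, with a median of -0.32. Scd2 was at -2.28 in set 14, with a median of -0.88. Of these genes Ucp2 and Scd2 were DEG, and both kept an edgeR FDR under 0.05 without any single set.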

How the results depend on the processing

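The count of 106 DEG (42 higher, 64 lower) depended most on the block for the set. No replicate block left 2 DEG, 2 higher and 0 lower (1, 1 and 0 for ALL against AII + NA), and the animal as block 46, with 18 lower. Without a threshold of fold change there were 481 DEG (197 and 284), and with one of 1.0 there were 31 (14 and 17). Only the 18 Control and HG + FFA libraries gave 39 lower DEG, and leaving out sets 15 and 16 gave 40. With each set left out singly the count ran from 61 to 121, that of higher DEG from 38 to 55 and that of lower DEG from 23 to 66, where 61 and 23 came without set 12. Leaving out sets 9, 11 and 13 was chosen after seeing the data. For ALL against AII + NA, DESeq2 alone gave 139 DEG (89 lower) and no filter on low counts 122 (77 lower). The interaction of EC with WT and KO VSMC had 4 and 1 genes in DESeq2 and 64 and 24 without the filter. Each of these counts moved through its construction or the cause was not tested. The other alternatives (edgeR alone, DESeq2 alone, DESeq2 size factors, no FPM minimum, all gene types, no filter, all 38 libraries) gave 104 to 138 DEG, and all 106 kept their direction in every fit with edgeR. Those fits reuse libraries by which the 106 had been called. Single genes changed sign only where they were not called. These were Nos3 (log2FC 0.040 in DESeq2, -0.30 to 0.13 with single sets left out, 0.16 without sets 15 and 16), Lpl (0.12 with no replicate block, -0.12 to 0.061 with single sets left out), Ddit3 (-0.17 to 0.021 with single sets left out, 0.067 without sets 15 and 16, 0.0021 without sets 9, 11 and 13) and Ppard (0.015 without sets 9, 11 and 13). Named DEG that lost their FDR without single sets were Egr3 (7 sets), Col1a1 (6), Prrt4 (5), Atp1b2 (3), Scara5 (2) and Col1a2, Egr2 and Ppp1r3c (1 each). Depth limits Nos3, Ppara and Cd36, with few reads in most libraries.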

Other observations

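Further DEG of known function lay outside the lists, and those given here were chosen after their values were seen. Among regulators Klf11, a Krüppel-like factor, rose in all 9 sets (log2FC 0.77 ± 0.10, edgeR FDR 2.26e-05), while Klf15, a Krüppel-like factor of fuel use in heart and muscle, fell in all 9 (-0.75 ± 0.14, edgeR FDR 0.00115) and Sox9, a factor of cartilage and mesenchyme, fell in 8 (-0.69 ± 0.17, edgeR FDR 0.018). Col2a1, the cartilage collagen that Sox9 is known to drive, was lower as well (-1.04 ± 0.26, edgeR FDR 0.0192), though higher in 2 of 9 sets and at a Control median of 4.51 FPM. At the cell surface Tfrc, the transferrin receptor, rose in 8 sets (0.73 ± 0.14, edgeR FDR 0.00199). Tgm2, a transglutaminase that crosslinks proteins, rose in all 9 (0.74 ± 0.15, edgeR FDR 0.00446) and again in ALL against AII + NA (0.91, edgeR FDR 0.0251).

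Among genes of vessels Ramp2, the partner of the adrenomedullin receptor, fell in all 9 sets (log2FC -0.95 ± 0.14, edgeR FDR 7.93e-05). Its Control level ran from 0.903 through 26.6 to 222 FPM, and with HG + FFA it ran from 0.474 through 14.1 to 126 FPM. Vegfd, a growth factor for lymphatic vessels, fell in 8 sets (-0.75 ± 0.17, edgeR FDR 0.00981), from a Control median of 156 FPM to 108 FPM. Its Control level was 599, 2176 and 1671 FPM in sets 9, 11 and 13, which had the least endothelial marker RNA. In the other sets it was 61.9 to 356 FPM. In ALL against AII + NA Vegfd was lower again (-0.57, edgeR FDR 0.0173), while Ramp2 did not pass (-0.65, edgeR FDR 0.0953).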
